A study of Vitis vinifera with 6 samples.

Results

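The genes described here are 5 enzyme genes from the middle of the grapevine flavonoid pathway, out of 29536 genes in the deposited expression table. They were chosen by identifier: F3H1 (VIT_04s0023g03370), F3H2 (VIT_18s0001g14310), DFR (VIT_18s0001g12800), LDOX (VIT_02s0025g04720) and FLS1 (VIT_18s0001g03470). The first 4 encode enzymes on the way to flavan-3-ols and are called the flavan-3-ol route here. Of these, F3H1 and F3H2 come before the flavonol branch leaves the pathway, so their products feed that branch as well. FLS1 is a gene of the flavonol branch, and the only gene by which that branch is followed here. The identifiers place F3H1 on chromosome 4, LDOX on chromosome 2, and DFR, F3H2 and FLS1 on chromosome 18.

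RNA was sequenced from the seed content of Vitis vinifera table grapes, F1 hybrids of Red Globe and Crimson Seedless grown in 1 field on 1103 Paulsen rootstock. In stenospermocarpic grapes seed growth is arrested early, and a seed trace remains in the berry. Seed traces came from 3 seedless sdi+ hybrids (669-60, 670-17 and 675-17, seedless replicates 1 to 3), and seeds came from 3 seeded sdi- hybrids (665-17, 671-19 and 677-06, seeded replicates 1 to 3). All berries were taken 4 weeks after anthesis at 10 to 12 mm, and 12 to 50 fruits were pooled for each RNA extraction. Each hybrid gave a single library, so plant-to-plant differences are part of the spread within a class. The titles of the seeded samples carry the word Seededless, while their phenotype, tissue and genotype labels mark them as seeds of seeded plants, and the classes were taken from the phenotype.

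Flavanone 3-hydroxylase (F3H) turns flavanones into dihydroflavonols, the compounds at which the pathway forks. Dihydroflavonol reductase (DFR) and leucoanthocyanidin dioxygenase (LDOX, also called anthocyanidin synthase) take them on to leucoanthocyanidins and anthocyanidins, from which the reductases LAR and ANR make flavan-3-ols, the units of the tannins laid down in the seed coat. Flavonol synthase (FLS) acts on the same dihydroflavonols and makes flavonols, which are known as ultraviolet-absorbing pigments. F3H, LDOX and FLS are related 2-oxoglutarate-dependent dioxygenases, whereas DFR is a reductase of another family.

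Levels are in RPKM, in which reads are divided by the length of the gene model and by the library total, so that levels can be set side by side between genes. The library totals used as divisors, fitted from the spacing of low values, ran from 6576771 to 9267652. Seedless replicate 1 stood apart. Its log2 values correlated across genes at 0.847 and 0.862 with the other seedless libraries and at 0.728 to 0.743 with the seeded libraries, against 0.944 between seedless replicates 2 and 3 and 0.959 to 0.961 among the seeded libraries (Pearson's r across genes, which are not replicates). As a check of the labelled tissue, VviAGL11, a MADS-box gene of ovule and seed coat identity, had 47.5, 197 and 177 RPKM in seed traces and 272, 288 and 287 RPKM in seeds. Seedless replicate 1 was thus the lowest for this marker, and all traces were below all seeds. Its class difference did not pass the test described below (log2 fold change -1.24, limma adjusted p = 0.161). Tissue and sdi genotype change together between the classes, so this marker does not check tissue alone. The part of VviAGL11 in the results on the pathway genes was not tested. UFGT, which makes coloured anthocyanins in berry skin, stood at 0, 0 and 0.106 RPKM in traces, against 0.179, 0 and 0.372 RPKM in seeds. In these whole-tissue samples, fewer cells of a type and less RNA per cell cannot be told apart.

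The comparison of the classes asks whether the enzymes around the dihydroflavonol fork differ between arrested seed traces and seeds. F3H1 and DFR fell in seed traces, to 40.3% and 35.7% of their mean level in seeds. LDOX and F3H2 stood at 52.2% and 54.0% of the seed mean and did not pass the test. Each of these 4 genes was lower in every trace library than in every seed library. FLS1 was far less abundant than the others, and its classes overlapped. Of the 5 genes, 2 fell, none rose and 3 did not pass at an adjusted p under 0.05 (limma on log2(RPKM + 1), Benjamini-Hochberg over 18749 tested genes). Across all tested genes, 5.1% fell and 7.18% rose by that rule, and 20.5% had every trace library below every seed library. The median log2 fold change of the 5 genes was -0.92, against -0.04 over all tested genes.

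**Figure D1:**
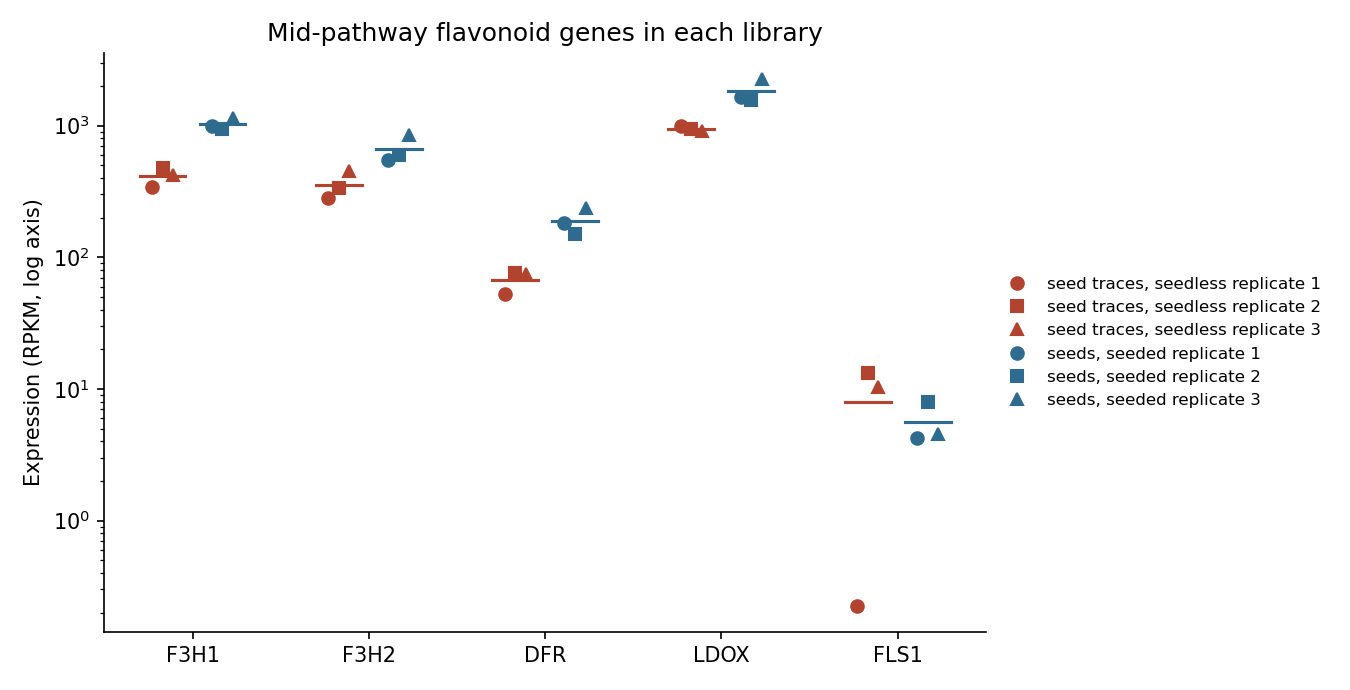
Expression of the 5 genes in each library, as RPKM on a log axis. Points are libraries (red, seed traces; blue, seeds) and horizontal lines are class means of 3 libraries. LDOX, F3H1, F3H2 and DFR are lower in each trace library than in each seed library, and FLS1 is spread from 0.226 to 13.1 RPKM among the traces.

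The genes at the entry are the flavanone 3-hydroxylases. F3H1 had 344, 473 and 420.0 RPKM in traces, against 989.6, 946 and 1137 RPKM in seeds, in the order of the replicates used throughout. The lowest seed library was thus far above the highest trace library, and the seeds lay close together. The class means were 412 ± 64.8 RPKM in traces and 1024 ± 100.1 RPKM in seeds (SD, n = 3 each). The log2 fold change of F3H1 was -1.32 (SE 0.21, limma adjusted p = 0.0145). It kept the call without seedless replicate 1, at -1.19, and lost it when seeded replicate 1, 2 or 3 was left out (log2 fold changes -1.34, -1.37 and -1.24; limma adjusted p = 0.0523, 0.0613 and 0.0684).

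F3H2, the second copy, had 281, 338 and 452 RPKM in traces and 545, 596 and 844 RPKM in seeds. The classes did not overlap, but both were more widely spread than those of F3H1, with the highest library 1.61 times the lowest in traces and 1.55 times in seeds. Means were 357 ± 87.3 RPKM in traces and 661 ± 160.0 RPKM in seeds (SD, n = 3 each). At -0.89 (SE 0.26), its log2 fold change missed the threshold (limma adjusted p = 0.0741). With the replicate number as a block it passed (limma adjusted p = 0.0434; all alternatives gave 0.0434 to 0.211).

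Together the 2 copies summed to 769 ± 129.0 RPKM in traces and 1685 ± 256 RPKM in seeds (SD, n = 3 each). F3H1 made up 55.1%, 58.3% and 48.2% of that sum in traces and 64.5%, 61.4% and 57.4% in seeds. The larger share thus came from F3H1 in every library except seedless replicate 3, and the ranges of the classes overlapped.

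DFR, the first enzyme after the fork, had 52.7, 75.5 and 74.8 RPKM in traces and 183, 149.7 and 236 RPKM in seeds. The class means were 67.7 ± 12.96 RPKM in traces and 189.6 ± 43.7 RPKM in seeds (SD, n = 3 each). The lowest seed library, seeded replicate 2, was still above the highest trace library. Its log2 fold change of -1.47 (SE 0.23, limma adjusted p = 0.0143) was the lowest of the 5. Without seedless replicate 1 it was -1.30 and passed, whereas without seeded replicate 1 or 3 it missed the threshold (limma adjusted p = 0.0567 and 0.0571, log2 fold changes of -1.48 and -1.30).

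LDOX was the most abundant of the 5 genes in each library. It had 993, 948 and 912 RPKM in traces and 1662, 1555 and 2248 RPKM in seeds. The traces lay within 1.09 times of each other, and the spread came from the seeds, where the highest library was 1.45 times the lowest. Means were 951 ± 40.1 RPKM in traces and 1822 ± 373 RPKM in seeds (SD, n = 3 each), and the log2 fold change, at -0.92 (SE 0.24), missed the threshold (limma adjusted p = 0.057). The call depended on the setting, since LDOX passed in 5 of 16 alternatives, among them limma's voom on recovered reads (limma adjusted p = 0.0269; all alternatives gave 0.0269 to 0.179). By rank, LDOX stood between places 22 and 31 of all genes in traces and between places 9 and 17 in seeds, so it was among the most abundant transcripts of both classes. DFR, by contrast, ranked between 1587 and 2794 in traces and between 371 and 790 in seeds.

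FLS1, the flavonol gene, had 0.226, 13.1 and 10.4 RPKM in traces and 4.26, 7.96 and 4.54 RPKM in seeds. Seedless replicates 2 and 3 were the highest of the 6 libraries, and seedless replicate 1 was the lowest. These levels rest on few reads: 2, 121 and 84 in traces, and 41, 91 and 42 in seeds, on a gene model of 1233 bp. For seedless replicate 1 the exact Poisson 95% interval was 0.0274 to 0.817 RPKM, and the lowest bound among the other 5 libraries was 3.05 RPKM. Its low value therefore lay outside counting error, which is all that these intervals cover. Class means were 7.91 ± 6.80 RPKM in traces and 5.59 ± 2.06 RPKM in seeds (SD, n = 3 each).

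The log2 fold change of FLS1 was -0.14 (SE 0.91, limma adjusted p = 0.934), with a 95% interval of -2.32 to 2.05 that spans both a large fall and a large rise. Without seedless replicate 1 the direction turned: traces were above seeds in both remaining libraries, and the log2 fold change became 0.99, which missed the threshold (limma adjusted p = 0.0688). Without seeded replicate 2 it was 0.11 (limma adjusted p = 0.964). Because the lowest library held only 2 reads, the value also moved with the pseudocount. It was -0.62 at a pseudocount of 0.1, -0.31 at 0.5 and -0.72 with voom on recovered reads (limma adjusted p = 0.791, 0.873 and 0.738). Without seedless replicate 2 or 3 it was -0.78 or -0.62. Seedless replicate 1 was also lowest for VviAGL11, and the part of that library's difference in the FLS1 result was not tested beyond leaving it out.

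FLS1 was set against the genes of the flavan-3-ol route as ratios within a library, which do not move with the library total. Only DFR and LDOX lie beyond the fork, so the ratios to F3H1 and F3H2 do not compare the branches. FLS1 stood at 0.429%, 17.4% and 13.8% of the RPKM of DFR in traces and at 2.33%, 5.32% and 1.92% in seeds. Against LDOX, FLS1 was at 0.0228%, 1.39% and 1.14% in traces and 0.256%, 0.512% and 0.202% in seeds. DFR was thus more abundant than FLS1 in every library, by 5.75 to 233 times. This compares DFR with FLS1 alone and not with all flavonol synthase genes, and the abundant model next to FLS1 is described at the end. Seedless replicates 2 and 3 had the highest FLS1 share and seedless replicate 1 the lowest, on either side of the seeds.

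On the log2(RPKM + 1) scale, FLS1 minus DFR was -5.45, -2.44 and -2.74 in traces and -5.13, -4.07 and -5.42 in seeds. This averaged -3.54 ± 1.66 in traces and -4.87 ± 0.71 in seeds (SD, n = 3 each). The difference of 1.33 is smaller than the SD of the traces. Without seedless replicate 1 the difference was 2.29, and the remaining traces lay above all 3 seeds. Without seedless replicate 2 it was 0.78, at a pseudocount of 0.1 it was 0.86, and from recovered reads it was 0.80. Against LDOX, F3H1 and F3H2 the libraries kept the same extremes, and the differences were 0.78, 1.18 and 0.75. These became 1.94, 2.18 and 1.72 without seedless replicate 1, but 0.14, 0.65 and 0.088 without seedless replicate 2, and 0.27, 0.72 and 0.45 without seedless replicate 3. At a pseudocount of 0.1 they were 0.30, 0.70 and 0.27, and from recovered reads 0.24, 0.64 and 0.21. Without seeded replicate 3 they were 0.52, 1.0018 and 0.46. All stayed above 0, but their size rested on the library left out and on the pseudocount. No p-value is given for these ratios, because the genes were chosen with results known and an exact permutation test of 3 against 3 cannot go below 0.1. Whether these ratios differ between the classes was not tested.

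**Figure D2:**
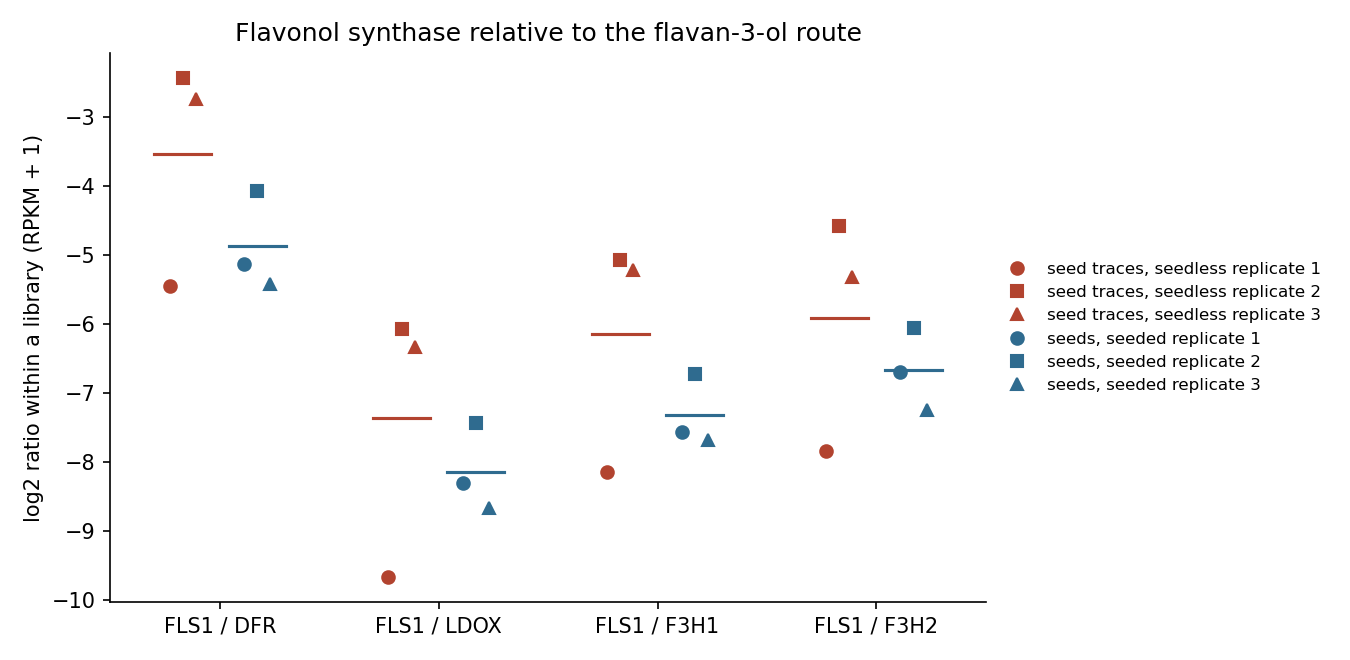
FLS1 relative to each of the 4 genes of the flavan-3-ol route, as the log2 ratio of RPKM + 1 within each library. F3H1 and F3H2 come before the fork, and DFR and LDOX after it. Points are libraries (red, seed traces; blue, seeds) and lines are class means. Seedless replicates 2 and 3 lie above all seeds for each pair and seedless replicate 1 lies below them, as for FLS1 minus DFR with -2.44 and -2.74 against -5.45.

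Within the flavan-3-ol route, some ratios between genes did not overlap between the classes in these libraries, while others did. LDOX was 18.8, 12.6 and 12.2 times as abundant as DFR in traces and 9.09, 10.4 and 9.51 times in seeds, so each trace library had more LDOX per DFR than each seed library. As DFR minus LDOX on the log2(RPKM + 1) scale, the class means were -3.81 ± 0.35 in traces and -3.26 ± 0.10 in seeds (SD, n = 3 each). The difference of -0.55 was -0.35 without seedless replicate 1, and the classes still did not overlap. DFR and F3H1, in contrast, kept nearly the same ratio. DFR minus F3H1 was -2.60 ± 0.11 in traces and -2.45 ± 0.20 in seeds (SD, n = 3 each), ranged over only 0.42 across the 6 libraries, and overlapped between the classes. Of the remaining pairs, DFR minus F3H2 and LDOX minus F3H1 also did not overlap between the classes. Their differences were -0.58 and 0.40, and -0.57 and 0.24 without seedless replicate 1. LDOX minus F3H2 (-0.03) and F3H1 minus F3H2 (-0.43) overlapped. These ratios are descriptions, with no test. The pairs share genes and so are not independent. How often ratios of other gene pairs fail to overlap was not counted.

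**Figure D3:**
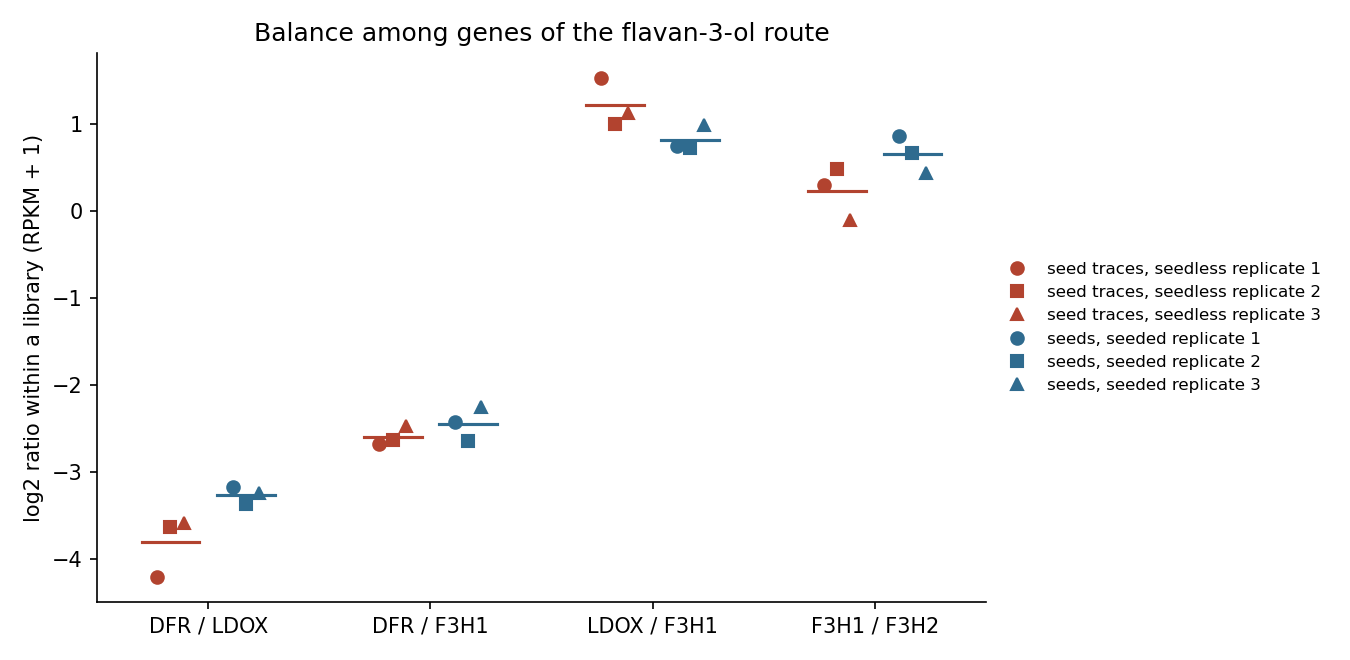
Ratios among the genes of the flavan-3-ol route, as the log2 ratio of RPKM + 1 within each library. Points are libraries (red, seed traces; blue, seeds) and lines are class means. DFR / LDOX is lower in each trace library than in each seed library, while DFR / F3H1 stays between -2.68 and -2.26 in all 6.

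As shares of the summed RPKM of the 5 genes, LDOX took 53.2 ± 5.56% in traces and 49.1 ± 1.26% in seeds, and F3H1 took 22.9 ± 2.52% in traces and 27.9 ± 2.15% in seeds (SD, n = 3 each). F3H2 held 19.8 ± 3.90% in traces and 17.8 ± 1.47% in seeds, and DFR 3.75 ± 0.51% in traces and 5.10 ± 0.43% in seeds. The sum itself was 1670, 1848 and 1869.7 RPKM in traces and 3384, 3254 and 4469 RPKM in seeds. Its traces were thus all well below its seeds, and the LDOX shares of the classes overlapped.

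The rest of the pathway was described by a list of 12 genes whose identifiers were recalled from the published grapevine catalogue. Expression passed the filter for 11 of them. None of the 11 rose, 7 fell and the remaining 4 missed the threshold, whereas 5.1% of all tested genes fell. The median log2 fold change of the 11 was -1.23, against -0.04 over all tested genes. Of the 6 listed genes of chalcone synthase, chalcone isomerase and the B-ring hydroxylase, 4 fell. The chalcone synthases CHS1 and CHS2, which build the flavonoid skeleton, had log2 fold changes of -1.73 and -1.27. The chalcone isomerase CHI2 had -1.23 and the B-ring hydroxylase F3'H had -1.31. CHS3, at -0.92, and CHI1, at -0.56, missed the threshold. Reads may be split between chalcone synthase copies of similar sequence, which was not tested. Downstream of the fork, ANR and LAR1 fell, with log2 fold changes of -1.04 and -1.84, while LAR2 had 1.70 and did not pass. LAR2 had 75.9, 21.5 and 21.1 RPKM in traces and 10.4, 12.5 and 6.19 RPKM in seeds, so every trace was above every seed. With libraries weighted in the fit, its rise passed (log2 fold change 1.36, limma adjusted p = 0.0413). UFGT was below the filter.

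Of the 2 regulators listed, MYBPA1, an activator of tannin genes, had 173, 252 and 180.1 RPKM in traces and 409.7, 578 and 540.2 RPKM in seeds, with a called log2 fold change of -1.34 (limma adjusted p = 0.0179). MYBF1, an activator of flavonol synthase, had 4.71, 2.69 and 5.26 RPKM in traces and 5.45, 2.34 and 1.72 RPKM in seeds. Its classes overlapped, and its log2 fold change was 0.39 (limma adjusted p = 0.528). Among the traces, seedless replicate 1 had more MYBF1 than seedless replicate 2, unlike the order of FLS1. MYBF1 levels were low in all libraries, and a link between MYBF1 and FLS1 was not tested. The count of falls depended on single libraries, in the list and over all tested genes. In the list, 6, 4 and 4 genes fell without seedless replicate 1, 2 or 3, and 2, 1 and 1 without seeded replicate 1, 2 or 3. Over all tested genes, 957 fell with every library. That count was 1239, 595 and 463 without seedless replicate 1, 2 or 3, and 215, 125 and 116 without seeded replicate 1, 2 or 3.

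**Figure D4:**
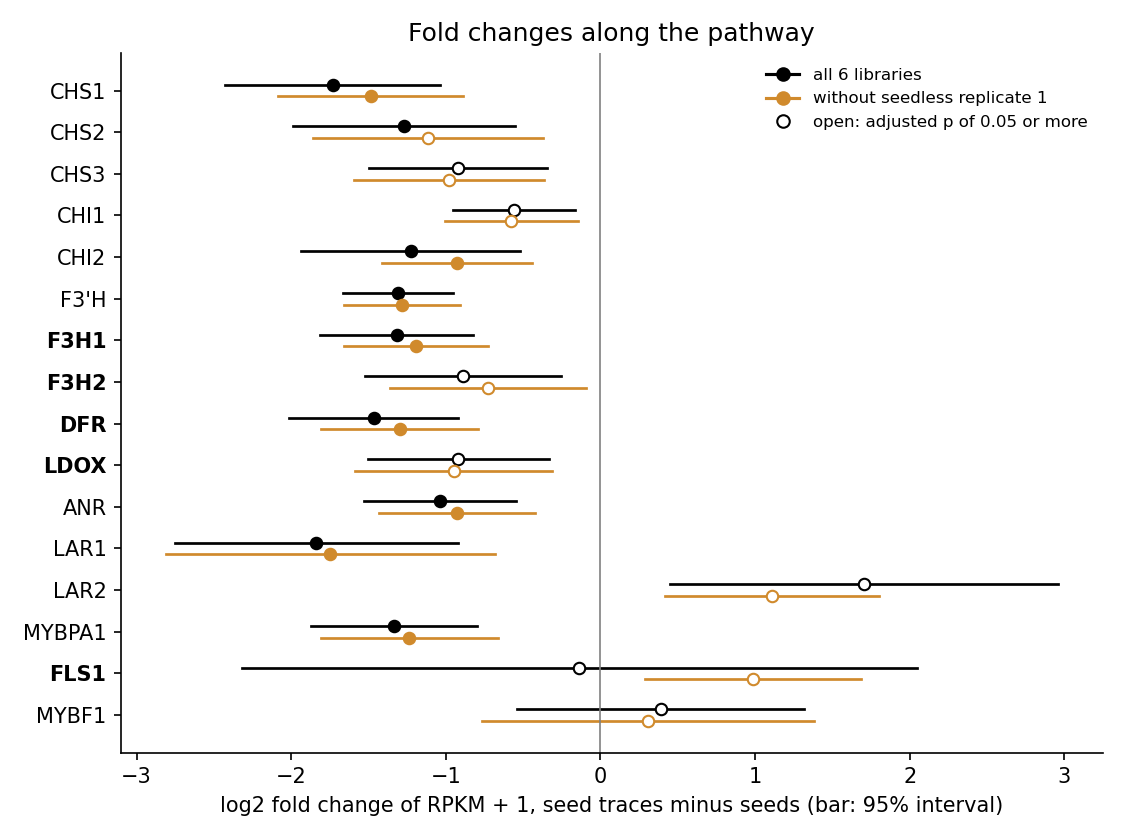
Log2 fold changes of RPKM + 1, seed traces minus seeds, for the 5 genes (bold) and the 11 other pathway genes above the filter. The order runs roughly from entry to end products, with the flavonol genes last. Bars are 95% intervals from limma, filled points passed at an adjusted p under 0.05, black is the fit of all 6 libraries and orange the fit without seedless replicate 1. F3H1 and DFR pass in both fits, and FLS1 moves to 0.99 from -0.14 when that library is left out.

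To see which genes varied most like each of the 5, profiles of log2(RPKM + 1) over the 6 libraries were centred and compared by their root-mean-square difference among 10885 genes averaging at least 10 RPKM. The nearest gene to F3H1 was F3'H (VIT_17s0000g07200), at a difference of 0.10. DFR was 12th from F3H1, and F3H1 was the third nearest to DFR, after VIT_06s0080g00320 as the nearest at 0.12. For LDOX the nearest was VIT_11s0016g04700 at 0.08, with CHS3 next. For F3H2 it was VIT_07s0005g00590 at 0.07, while F3H1 ranked 694th. For FLS1, which itself averaged 6.75 RPKM, the nearest was VIT_12s0059g01750 at 0.23, and the route genes ranked 3977th or lower. FLS1 varied more than the others, and as a share of each gene's own root-mean-square spread the nearest profile lay at 19.9% for FLS1 and at 13.3% to 15.4% for the other 4. VIT_12s0059g01750 had 10.5, 143 and 122.8 RPKM in traces and 74.6, 77.7 and 62.8 RPKM in seeds, so it was also lowest in seedless replicate 1 and highest in seedless replicates 2 and 3. These ranks describe 6 libraries in 2 classes and carry no test, and the files pair none of these identifiers with names.

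Tandem copies could share reads with a gene of this family, so the gene models next to each of the 5 in identifier order were read as well. Near FLS1, VIT_18s0001g03430 lies on the same scaffold and has a model of 1201 bp, close to the 1233 bp of FLS1. It had 73.3, 151 and 184 RPKM in traces and 520.4, 440.0 and 487 RPKM in seeds, a log2 fold change of -1.91 that passed (limma adjusted p = 0.0206). It was thus much more abundant than FLS1, above DFR in each library, and lower in traces like F3H1 and DFR. The ratios to FLS1 given above do not include it. VIT_18s0001g03400, with a model of 1242 bp, went the other way. It had 5.39, 2.26 and 2.33 RPKM in traces and 0, 0.0869 and 0.107 RPKM in seeds (log2 fold change 1.95, limma adjusted p = 0.0182). The next identifiers after FLS1, VIT_18s0001g03490 and VIT_18s0001g03500, were listed at no more than 0.107 RPKM in any library. The files give no product for these models, and whether any of them shares reads with FLS1 was not tested. Of the 26 models within 150 of FLS1 in identifier number, 16 were tested, 1 fell and 1 rose. Around F3H1, 3 of 21 tested models fell and none rose, and the lowest log2 fold change was -3.06 for VIT_04s0023g03230. Around DFR, 1 of 22 fell and 1 rose, around LDOX 2 of 19 rose and none fell, and around F3H2 none of 19 passed in either direction. Across all tested genes, 5.1% fell and 7.18% rose, and no result about the neighbours is drawn from these small counts.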

How the data were processed

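A single RPKM table was deposited by the authors. It has 1 column for each library, and its gene column is headed 12X V1 Gene ID. Per the submitters' processing notes, the tools were edgeR 2.2.6, HTSeq 0.5.4p5 and TopHat2 2.0.13, with no roles stated. That header points to the 12X assembly with its V1 gene models; the genome file used for alignment and the strand setting of the counting are not given in the sources used here. Dividing by a library total makes each level relative to that total and not an absolute amount.

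Of 29548 genes listed, 12 with a doubled decimal point in a value were left out. Whole reads were recovered by a search for the gene-model length and totals at which all 6 RPKM values of a gene become whole numbers. A fit was found for 99.99% of 24536 genes above 0, and the 23804 with an expected chance fit under 0.01 were used, among them all 5 genes described. The recovered reads summed to 93.8% to 104.3% of the fitted totals. The sum exceeded the total in seedless replicate 1 (103.3%), seeded replicate 2 (101.2%) and seeded replicate 3 (104.3%). A plain total of counted reads could not lie below such a sum, and how the totals were set is unknown.

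The 18749 genes that reached 1 RPKM in 3 or more libraries were compared as log2(RPKM + 1), a scale that understates changes of low genes. The test was limma 3.58.1 in R 4.3.3 (lmFit, eBayes with trend; two-sided). P-values were adjusted by Benjamini-Hochberg and called under 0.05. The fit was also run on simulated data with independent noise, which held no deviating library like seedless replicate 1. The read recovery was run on reads simulated from genes already recovered. Alternatives changed the pseudocount (0.1, 0.5), filter (none, 5 RPKM), scaling, variance model, library weights and replicate block, used voom on recovered reads, and left out each library in turn. Other steps used Python 3.11.15.

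The members and gene lists were chosen with earlier results of these data known. None of the table's identifiers matched the RefSeq gene table used here (ASM3070453v1), so names rest on the published catalogue as recalled. Symbols were found there for 4 of the 5 genes, each on the chromosome its identifier gives, and for all 12 other pathway genes, 11 of them on that chromosome; ANR has an unplaced identifier. Genes were named by rule: the 5 members, the listed pathway genes, and the 1 gene with the nearest profile to each member. Neighbouring models were read by identifier, and those named were picked after their values were seen.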

Additional observations from a re-analysis of the deposited data

How the results depend on the processing

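Of the 80 comparisons of a log2 fold change of the 5 genes with an alternative, 66 gave the same call and direction, 5 lost the call, 6 gained it and 3 turned direction. The losses were those of F3H1 and DFR when a seeded library was left out, where their log2 fold changes ran from -1.42 to -1.19 and from -1.62 to -1.30 over all 6 libraries left out. LDOX gained the call with a filter of 5 RPKM, without trend and with voom on recovered reads (log2 fold change -0.92 each), with median scaling (-0.99) and with library weights (-1.0). FLS1 turned direction with library weights (0.74) and, leaving out 1 library at a time, ran from -0.78 to 0.99; none of its values passed (limma adjusted p from 0.0688 to 0.964). Over all 16 alternatives, F3H1 passed in 13 and DFR in 14 (limma adjusted p from 0.00559 to 0.0684 and from 0.00604 to 0.0571). In the same 6 fits, 0 to 2 of the 5 genes fell. Over all genes, 2303 passed with every library, 3603 after weighting libraries, and 429 to 2909 in the fits of 5 libraries. The cause was not tested. FLS1 had the fewest reads of the 5 genes, at 2 to 121 per library.

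With the replicate block, F3H2 passed at -0.89 (limma adjusted p = 0.0434), the calls on the other 4 genes were the same, and 1714 genes passed in all. Libraries of 1 number come from different hybrids. After subtracting class means, their correlations across genes were 0.07, 0.18 and 0.10. Whether they share more than a number was not tested. Each seedless library correlated best with the seeded library of its own number, and no pairing is inferred from this.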
